A study of Homo sapiens with 10 samples.

Results

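The granins and the enzymes that process prohormones were followed in SH-SY5Y cells, a human neuroblastoma line with a noradrenergic character. They were 7 genes for granins and related secretory proteins (CHGA, CHGB, SCG2, SCG3, SCG5, VGF and PCSK1N) and 3 genes for processing enzymes (PCSK1, PCSK2 and CPE). Each was found by its symbol, on 1 row of each of 2 tables, so these were 10 of the 23415 genes with numbers in both tables. Levels are FPKM, which is fragments per kilobase of a gene's transcript, relative to all those mapped in its library, so that genes of different length can be compared. Of the 10 genes, 8 passed the filter of a mean of at least 1 FPKM in a table and were tested. PCSK1 and PCSK2 did not pass and are described by their values.

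Poly(A) RNA was sequenced 72 h after transfection. The first table held 3 libraries of cells given 100 nM of an siRNA against LncND, a primate lncRNA whose role in Notch signalling and in binding a miRNA is the subject of the series title, and 3 in which cells received a scrambled siRNA. In the second table were 2 libraries from cells given 50 nM of a mimic of miR-143-3p, a synthetic RNA that acts as that microRNA, and 2 of cells given a scrambled miRNA. All 4 groups were the same line in DMEM/F12 medium with serum, and no dose is stated for the scrambled controls. Whether replicates came from separate cultures is not stated, so the p-values reflect only how far these libraries differed within groups, which may be technical. A transfected line is a population of tumour cells in culture and not normal neuroendocrine tissue. In bulk RNA of this kind, fewer cells expressing a gene and less RNA per cell cannot be told apart. LncND itself was not analysed here, so the knockdown has no check in these values.

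Granins are acidic, soluble proteins stored in dense core granules, the organelles in which neuroendocrine cells keep peptide hormones and amines until a stimulus triggers release. Some of them, such as chromogranin A, help granules to form, and most are also precursors that are cut into bioactive peptides. The convertases encoded by PCSK1 and PCSK2 cut prohormones after paired basic residues, and carboxypeptidase E, encoded by CPE, then trims those residues from the new ends. PCSK1N encodes an inhibitor of the PCSK1 enzyme, and SCG5 encodes a chaperone that the PCSK2 enzyme needs to become active. In sympathoadrenal cells, from which neuroblastoma arises, granins are stored together with catecholamines.

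Estimated depth ranged from 13.9 to 44.0 M fragments per library. Within groups, log2 levels of the genes tested in a table correlated between libraries at 0.988 to 0.997. LncND siRNA replicate 1 stood apart because the Y RNA gene RNY4 was listed there at 1224670 FPKM, against 0.001 in the other 9 libraries. Results for the siRNA were therefore also computed without that library. The cells carried noradrenergic markers, with 15 of 16 tested in each table and DBH, the enzyme that makes noradrenaline, at 348 to 1279 FPKM. TH, the first enzyme of that pathway, reached at most 0.438 FPKM in any library. The markers of other cells were 11 for Schwann cells and glia, 11 for endothelium and blood, and 12 for epithelium and islets. The filter was reached by 1 gene of each set in the siRNA table (S100B, CD68 and CLDN4). In the miRNA table only S100B did. HBB and PDX1 stood at the lowest value of the tables, 0.001 FPKM, in every library.

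Under the scrambled siRNA, VGF was the most abundant of the 10 genes at 211 ± 7.38 FPKM (SD, n = 3). CHGB at 138 ± 4.81 and CHGA at 134 ± 6.62 FPKM followed, and their ranges overlapped. SCG2 stood at 71.5 ± 4.65 and CPE at 57.1 ± 2.22 FPKM. Next came SCG3 at 22.2 ± 0.742, SCG5 at 20.5 ± 0.476 and PCSK1N at 15.8 ± 1.22 FPKM, and these 3 ranges did not overlap. The convertase genes were near the floor, PCSK2 at 0.109 ± 0.0329 FPKM and PCSK1 at 0.026 ± 0.0116 FPKM. CPE was thus the only 1 of the 3 processing enzymes with a substantial level. The scrambled miRNA libraries also had VGF highest, at 509 ± 18.3 FPKM (n = 2), and PCSK1 lowest, at 0.132 ± 0.00678 FPKM. The tables were normalized separately, so levels are not compared across them.

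**Figure D1:**
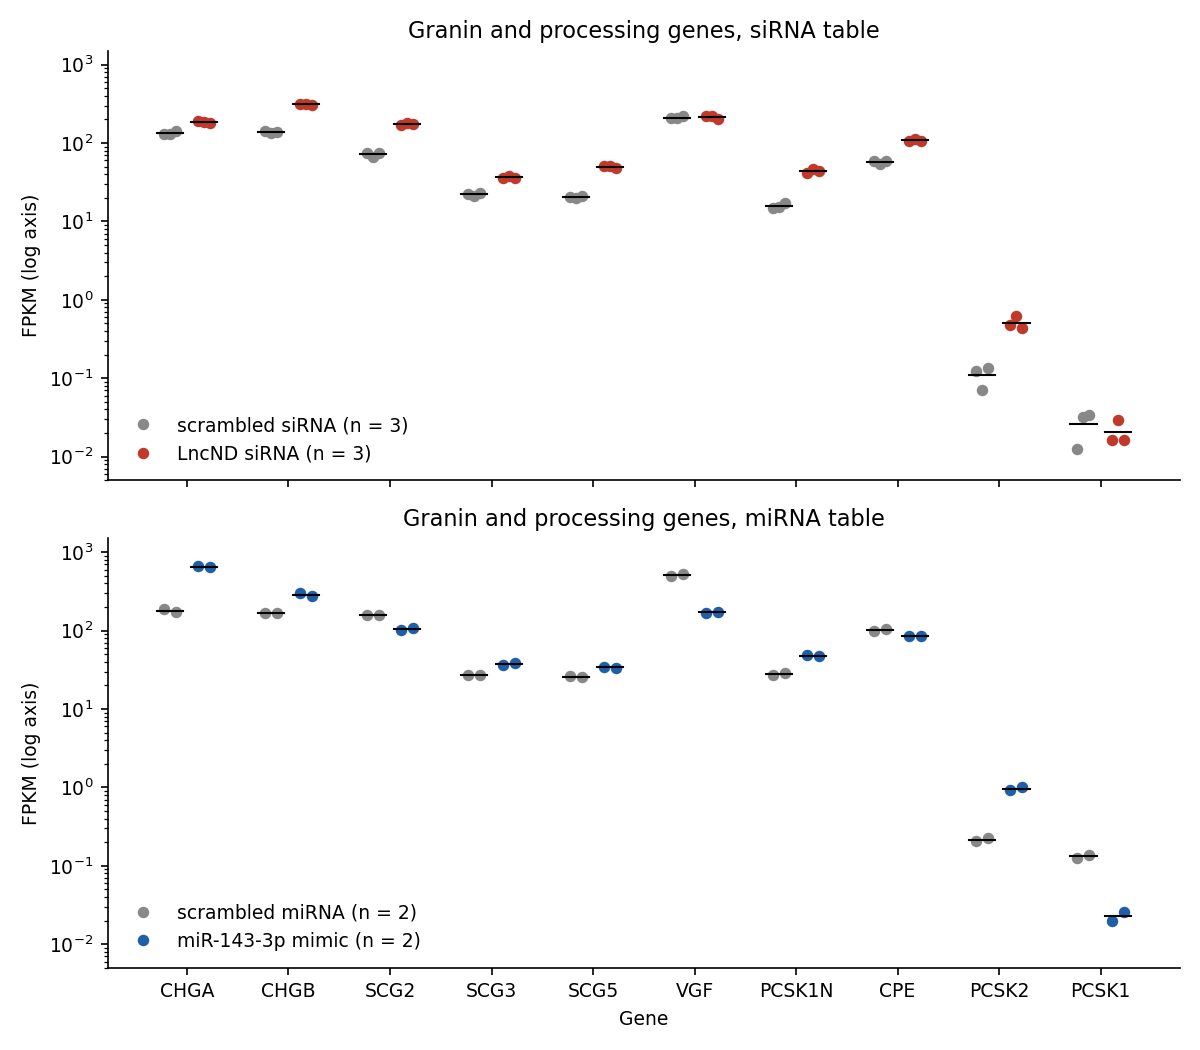
FPKM of the 10 genes on a log axis, with the siRNA table above and the miRNA table below, where each point is 1 library, colours mark the groups and short lines are group means. Points of treated and control libraries separate for most genes, those of VGF and PCSK1 overlap in the siRNA table, and PCSK1 and PCSK2 lie far below the other 8 genes.

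The first comparison asked how these genes changed when LncND was targeted by siRNA. Of the 8 genes tested, 7 rose, none fell, and VGF did not pass (limma, adjusted p under 0.05). All 8 estimates were above 0. Among all 12601 genes tested, 66.9% changed, 36.6% up and 30.3% down. With quantile normalization this balance turned, from 4613 up and 3818 down to 4026 up and 4658 down, while the 8 genes stayed at 7 up and 0 down. The median log2 fold change of the 8 genes was 1.04, against 0.024 over all genes tested. Rises of at least 1 on the log2 scale were seen for CHGB, SCG2, SCG5 and PCSK1N, and 2.41% of all genes tested rose that far (0.151% fell that far). Treated and control ranges were separate for 7 of the 8 genes, against 70.9% of all genes tested. Fold changes here are on the log2(FPKM + 1) scale, with limma standard errors and adjusted p-values.

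Of the 7 genes that rose, CHGA changed least. CHGA, chromogranin A (chromosome 14, 93389444 to 93401638 in hg19, as in the tables), was at 131, 129 and 141 FPKM in the scrambled siRNA libraries and at 192, 185 and 177 FPKM with LncND siRNA. All 3 treated libraries were above all 3 controls, a change of 0.46 ± 0.049 (SE, adjusted p = 1.80e-05). CHGB, chromogranin B (chromosome 20, 5891973 to 5906005), went from 142.8, 133 and 137 FPKM to 311, 317 and 303 FPKM. That change of 1.17 ± 0.044 (adjusted p = 2.51e-08) made CHGB the most abundant of the 10 genes under LncND siRNA. SCG2 (chromosome 2, 224461657 to 224467217) encodes secretogranin II, the precursor of the peptide secretoneurin. It was at 74.3, 66.1 and 74.1 FPKM in the controls and at 168, 179 and 175 FPKM in the treated libraries. The groups were far apart, with a change of 1.27 ± 0.052 (adjusted p = 3.95e-08). SCG3 (chromosome 15, 51973549 to 52013223), whose product binds chromogranin A at the granule membrane, went from 22.4, 21.4 and 22.8 FPKM to 36.2, 37.9 and 35.6 FPKM. It rose by 0.69 ± 0.040 (adjusted p = 2.88e-07).

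Both genes for convertase partners rose by more than 1 on the log2 scale. SCG5 (chromosome 15, 32933869 to 32989298) was at 20.8, 20.0 and 20.8 FPKM in the controls and at 50.9, 50.5 and 48.6 FPKM with LncND siRNA (1.24 ± 0.037, adjusted p = 6.22e-09). PCSK1N (chromosome X, 48689503 to 48694036) went from 14.9, 15.3 and 17.2 FPKM to 41.7, 46.3 and 43.3 FPKM. Its change of 1.42 ± 0.057 (adjusted p = 3.65e-08) was the largest of the 8 genes tested. VGF (chromosome 7, 100805789 to 100808852), a neurotrophin-inducible granin-like precursor of several peptides, was at 205, 208 and 219 FPKM in the controls. The treated libraries were at 223, 224 and 200.5 FPKM. These ranges overlapped, and the difference of 0.032 ± 0.054 did not pass (adjusted p = 0.617).

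Of the enzymes, CPE (chromosome 4, 166300096 to 166419482) rose from 58.7, 54.6 and 58.1 FPKM to 107, 112 and 106 FPKM (0.91 ± 0.042, adjusted p = 8.06e-08). PCSK2 (chromosome 20, 17206751 to 17465222) was at 0.123, 0.0718 and 0.133 FPKM in the controls and at 0.481, 0.613 and 0.431 FPKM in the treated libraries. The treated mean was 4.65 times the control mean, on an estimated 9.41 to 19.7 fragments per control library and 51.8 to 98.8 per treated library. With no filter on low values it passed (0.44 ± 0.053, adjusted p = 0.00326). PCSK1 (chromosome 5, 95726039 to 95768985) was at 0.0126, 0.0316 and 0.0336 FPKM against 0.0161, 0.0291 and 0.0164 FPKM. The groups overlapped, with an estimated 2.15 to 5.41 fragments per library, so no difference in PCSK1 was detectable at this depth.

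Without LncND siRNA replicate 1 the same 7 genes rose, by 0.43 for CHGA to 1.45 for PCSK1N, and VGF differed by 0.0074 (adjusted p = 0.904). Of the markers of other cells, S100B, CD68 and CLDN4 rose with LncND siRNA as well. CLDN4 averaged 0.621 FPKM in the controls, so it passed the filter only through the treated libraries. The summed FPKM of the Schwann and glial list was 3.75 to 3.93 in the controls and 6.85 to 7.22 in the treated libraries. For the endothelial and blood list the sums were 1.54 to 1.82 and 3.81 to 4.18 FPKM, and for the epithelial and islet list 1.45 to 1.69 and 4.18 to 4.57 FPKM. Their part in the rise of the granin genes was not tested. HBB, KRT5, INS and PDX1 stood at 0.001 FPKM in all 6 libraries.

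The second comparison asked how the same genes changed with the miR-143-3p mimic. All 8 genes tested changed, 5 up and 3 down, where 63.3% of the 12558 genes tested did, 24.6% up and 38.6% down. CHGA, CHGB, SCG3, SCG5 and PCSK1N rose, while VGF, SCG2 and CPE fell. The median of the 8 log2 fold changes was 0.41, against -0.062 over all genes. Under quantile normalization, 4145 genes rose and 3854 fell in place of 3094 and 4853, and the counts for the 8 genes stayed at 5 and 3. Treated and control ranges were separate for all 8 genes, which held for 81.9% of all genes tested. A rise of at least 1 on the log2 scale was seen for CHGA and a fall that large for VGF, against 0.916% and 1.82% of all genes tested.

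MicroRNAs repress transcripts that pair with their seed, so the mature sequence is given here with the seed, bases 2 to 8, in capitals, together with the only seed match found in the 10 genes, in capitals in its surroundings. The microRNA is from RefSeq (GRCh38.p14, chr5:149428978-149428998, plus strand).
hsa-miR-143-3p: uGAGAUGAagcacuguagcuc
SCG3 site: aatgtatgccaCATCTCAgttatctaaac
Matches of the letters TCATCTCA, TCATCTC and CATCTCA, which overlap each other, were searched on the sense strand of the longest 3′ UTR of each gene in GENCODE v29. The SCG3 match is CATCTCA at bases 735 to 741 of a 3′ UTR of 1505 bases. Of 19113 genes with a 3′ UTR, 22% had at least 1 match. The other 9 genes had none in 3′ UTRs of 166 bases (PCSK1N) to 2586 bases (PCSK1). A match is a run of letters and not a measured site. SCG3 rose with the mimic, and the 3 genes that fell held no match in these windows.

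CHGA showed the largest response to the mimic among the 8 genes tested. It was at 188 and 171 FPKM with the scrambled miRNA and at 659.7 and 641 FPKM with the mimic, a mean 3.62 times as high (1.85 ± 0.053, adjusted p = 1.88e-08). By size, this was number 19 of all rises in the 12558 genes tested. VGF went the other way, from 496 and 522 FPKM to 169 and 173 FPKM. That is a mean 2.98 times lower (-1.57 ± 0.045, adjusted p = 1.88e-08), number 35 among the falls. CHGB rose from 169 and 169 FPKM to 298 and 278 FPKM (0.76 ± 0.047, adjusted p = 9.69e-07). SCG2 fell from 159 and 156 FPKM to 100.4 and 108 FPKM (-0.59 ± 0.047, adjusted p = 4.98e-06). SCG3, with the seed match, rose from 26.9 and 27.5 FPKM to 36.0 and 38.8 FPKM (0.44 ± 0.050, adjusted p = 4.52e-05). The granins therefore split under the mimic, with both chromogranins and SCG3 higher and SCG2 and VGF lower.

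Among the convertase partners, SCG5 rose from 26.0 and 25.9 FPKM to 34.8 and 33.2 FPKM (0.38 ± 0.046, adjusted p = 7.77e-05). PCSK1N rose from 26.9 and 28.4 FPKM to 48.1 and 46.9 FPKM (0.76 ± 0.047, adjusted p = 9.71e-07). CPE was the smallest change, from 99.9 and 104 FPKM to 84.1 and 85.8 FPKM (-0.26 ± 0.042, adjusted p = 0.00049). The convertase genes moved apart. PCSK2 was at 0.205 and 0.223 FPKM with the scrambled miRNA and at 0.918 and 1.01 FPKM with the mimic, a mean 4.49 times as high. PCSK1 was at 0.127 and 0.137 FPKM against 0.0197 and 0.0255 FPKM, a mean 5.84 times lower. With no filter on low values both passed (PCSK2 0.69 ± 0.030, adjusted p = 0.0124, and PCSK1 -0.15 ± 0.0064, adjusted p = 0.0124). The PCSK1 difference rests on an estimated 9.22 and 26.2 fragments in the control libraries and 2.71 and 1.8 with the mimic. S100B, the 1 marker of other cells tested in this table, fell by 0.35 on the log2 scale (adjusted p = 0.00726). The summed FPKM of the Schwann and glial list went from 4.76 to 5.63 in the controls to 3.66 to 3.73 with the mimic, and its part in these results was not tested.

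**Figure D2:**
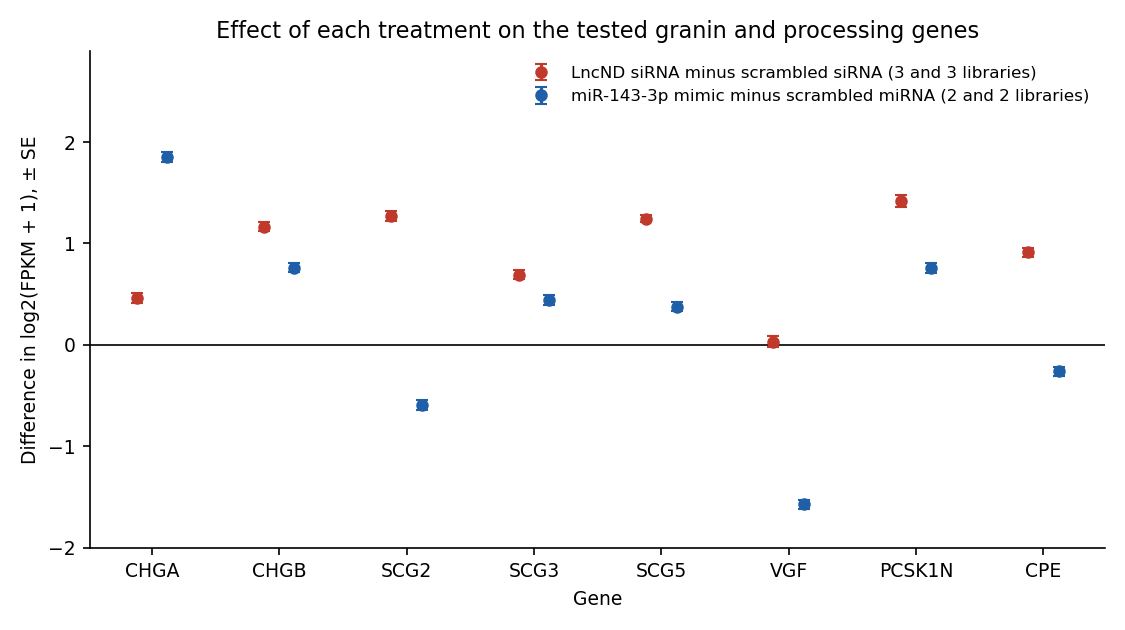
Effect on log2(FPKM + 1) of the 8 tested genes with LncND siRNA and with the mimic, where points are limma estimates and bars are standard errors. SCG2 and CPE lie above 0 for LncND siRNA and below 0 for the mimic, VGF lies near 0 for the siRNA and at -1.57 for the mimic, and the other 5 lie above 0 in both.

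Whether the 2 treatments had unequal effects was tested with limma over the 10 libraries together, each treatment against its own control. All 8 genes differed, where 60.2% of the 12327 genes tested in both tables did. SCG2 had the largest difference, 1.86 ± 0.077 (siRNA effect minus mimic effect, adjusted p = 6.80e-10), since it rose with the siRNA and fell with the mimic. CPE showed the same opposed pattern at 1.17 ± 0.062 (adjusted p = 6.24e-09). Among all genes tested in both, 10.6% rose with the siRNA and fell with the mimic. VGF differed by 1.60 (adjusted p = 2.63e-09) having fallen with the mimic and not passed with the siRNA. CHGA, in contrast, rose further with the mimic, and its difference was -1.39 ± 0.078 (adjusted p = 1.06e-08). The other 4 genes rose in both and further with the siRNA, by 0.87 for SCG5 (adjusted p = 3.79e-08), 0.66 for PCSK1N (adjusted p = 1.79e-05), 0.41 for CHGB (adjusted p = 0.000148) and 0.25 for SCG3 (adjusted p = 0.00473). With quantile normalization the CHGB difference was 0.18 (adjusted p = 0.0289 in limma). For SCG3 the difference did not pass with quantile normalization (0.13, adjusted p = 0.0793 in limma), and over the alternatives its adjusted p was 0.0029 to 0.0793. In all, 5 of the 8 genes rose in both comparisons, against 12.6% of all genes tested in both. None of the 8 fell in both or fell with the siRNA and rose with the mimic, patterns held by 16.4% and 4.66% of all genes. Dose and kind of RNA differed between the treatments, so the sizes are set side by side as measured.

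**Figure D3:**
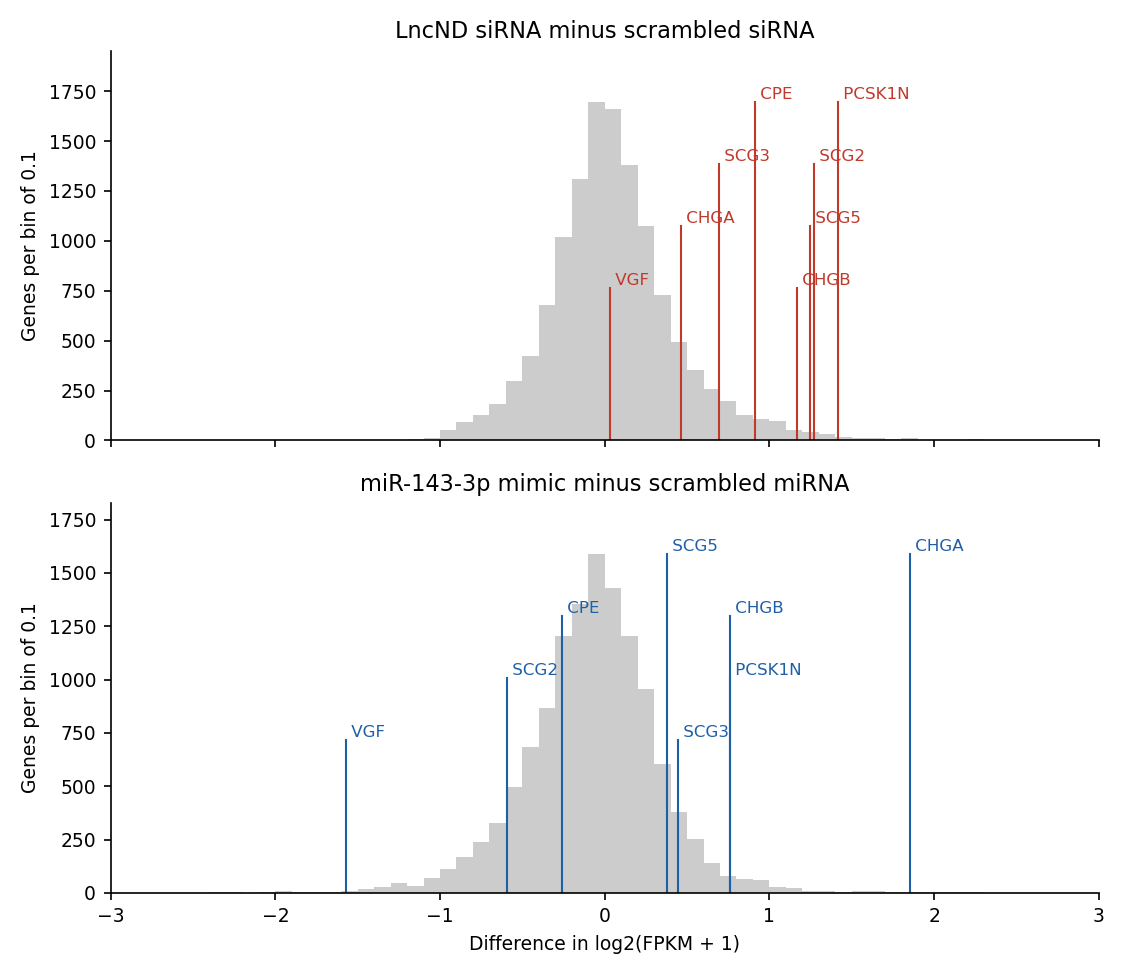
Histograms of the change in log2(FPKM + 1) of all genes tested, as genes per bin of 0.1, with LncND siRNA above and the mimic below and the 8 tested granin and processing genes as labelled vertical lines (CHGB and PCSK1N coincide at 0.76 with the mimic, and line heights carry no value). With LncND siRNA 7 of the lines lie at 0.46 or higher, and with the mimic CHGA and VGF lie far out on opposite sides. The axis runs from -3.0 to 3.0, so the few genes beyond it are not shown.

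The make-up of the granin pool moved with these changes. Summed FPKM of the 10 genes was 648 to 691 in the scrambled siRNA libraries and 1090.0 to 1152 with LncND siRNA. In the miRNA table it was 1192 to 1205 with the scrambled miRNA and 1405 to 1431 with the mimic. VGF made up 30.6% to 32.1% of the sum with the scrambled siRNA and 18.4% to 19.7% with LncND siRNA. With the mimic its share was 11.8% to 12.3%, against 41.6% to 43.3% in the controls. CHGA held 45.6% to 46.1% of the sum with the mimic and 14.2% to 15.8% with the scrambled miRNA. The most abundant gene was therefore VGF in both controls, CHGB with LncND siRNA and CHGA with the mimic.

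The ratio of CHGA to CHGB, the 2 chromogranins, turned in opposite directions. It was 0.917 to 1.03 with the scrambled siRNA and 0.583 to 0.618 with LncND siRNA, a difference of -0.71 in the log2 ratio. It was 1.01 to 1.11 with the scrambled miRNA and 2.21 to 2.31 with the mimic, a difference of 1.09. The groups did not overlap in either table, and the exact permutation p-values (2-sided) were 0.1 and 0.333, the smallest that 3 against 3 and 2 against 2 libraries can give. The ratio of SCG2 to CHGB was 0.496 to 0.541 with the scrambled siRNA and 0.539 to 0.577 with LncND siRNA, with overlapping ranges (0.10 in the log2 ratio, exact permutation p = 0.2). With the mimic that ratio went from 0.922 to 0.938 down to 0.337 to 0.389 (-1.35, exact permutation p = 0.333). Of 4 ratios computed in each table none could pass a threshold of 0.05 at these numbers of libraries.

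The other ratios set each convertase beside its partner. PCSK1N exceeded PCSK1 in every library, by 208 to 212 times with the scrambled miRNA and 1839 to 2448 times with the mimic, on few PCSK1 fragments. In the siRNA table it did so by 483 to 1180 times in the controls and 1593 to 2634 times with LncND siRNA. On the log2(FPKM + 1) scale this ratio differed by 1.42 with the siRNA and 0.91 with the mimic. PCSK1 was so low that the added 1 outweighs it, so this ratio mostly repeats the PCSK1N changes (1.42 and 0.76). SCG5 exceeded PCSK2 by 156 to 278 times with the scrambled siRNA and 82.4 to 113 times with LncND siRNA. In the miRNA table it exceeded PCSK2 by 116 to 127 times in the controls and 33.0 to 37.9 times with the mimic. On the log2(FPKM + 1) scale the SCG5 to PCSK2 difference with the siRNA was 0.80, and with a pseudocount of 0.1 it was -0.26. Its direction on the log2 scale thus depends on the pseudocount. With the mimic it was -0.32 and -1.37. PCSK2 was at most 0.613 FPKM in the siRNA table, so the added 1 outweighs it there. Without an added constant the ratio was lower in every treated library than in its controls.

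**Figure D4:**
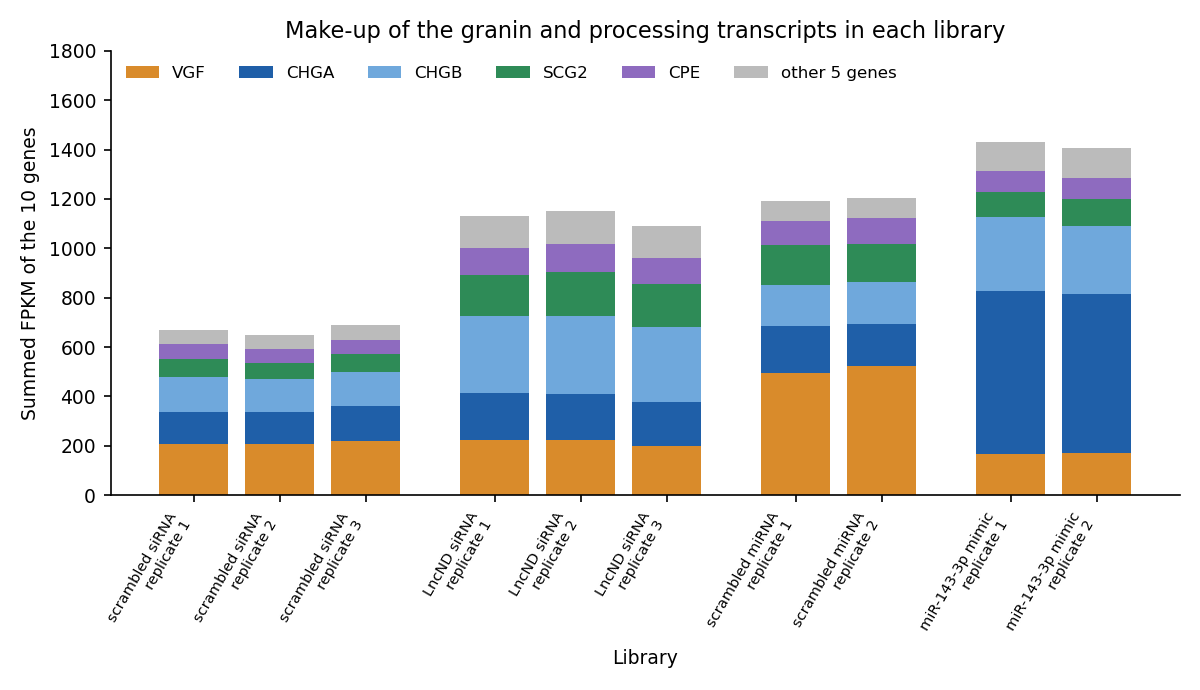
Summed FPKM of the 10 genes in each library as stacked bars, split into VGF, CHGA, CHGB, SCG2, CPE and the other 5 genes, where the pairs of groups come from 2 separately normalized tables. The VGF part is a smaller share of the bar in both treated groups than in their controls, and the CHGA part is largest in the 2 mimic libraries.

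Promoter sequences were compared because CHGA and VGF had the largest changes with the mimic, in opposite directions. RefSeq windows of 250 bases before to 50 after the start (GRCh38.p14) were matched for 8 of the 10 genes, in 10 windows, and CHGB and SCG2 had no entry. They are printed with the cAMP response element (CRE), the letters TGACGTCA, in capitals. The CHGA window is chr14:92922900-92923199 on the plus strand, and the VGF window is chr7:101165520-101165819 on the minus strand.
CHGA promoter: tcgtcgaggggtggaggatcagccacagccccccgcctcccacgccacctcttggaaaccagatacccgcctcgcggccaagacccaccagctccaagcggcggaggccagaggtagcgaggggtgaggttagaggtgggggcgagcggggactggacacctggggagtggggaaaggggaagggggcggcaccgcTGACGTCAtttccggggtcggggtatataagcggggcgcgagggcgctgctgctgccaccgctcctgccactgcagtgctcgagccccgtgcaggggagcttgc
VGF promoter: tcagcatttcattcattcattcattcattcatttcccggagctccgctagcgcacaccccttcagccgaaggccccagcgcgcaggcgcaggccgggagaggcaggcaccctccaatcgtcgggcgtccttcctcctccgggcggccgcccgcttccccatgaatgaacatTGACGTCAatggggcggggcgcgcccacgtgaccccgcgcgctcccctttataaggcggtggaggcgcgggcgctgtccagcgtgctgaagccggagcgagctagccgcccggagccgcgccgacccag
TGACGTCA reads the same on both strands. It begins 54 bases before the start in CHGA and 79 before it in VGF, and 1 of the 2 PCSK1 windows holds it 77 bases before the start. None of the other windows searched held it, and 1.85% of 35116 RefSeq windows do. TATAAA, searched on both strands, was found in the VGF window and in the PCSK1 window that lacks the CRE, against 11.5% of all windows. The CHGA window holds the similar letters tatataag, which a search for exactly TATAAA does not count. CHGA and VGF, which share the CRE letters, moved in opposite directions with the mimic. CREB1, which encodes a factor that binds this element, was chosen for mention after its values were seen. It fell by 0.31 on the log2 scale with LncND siRNA (adjusted p = 6.14e-05) and rose by 0.23 with the mimic (adjusted p = 0.00904).

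The genes whose levels most resembled those of 4 of these genes were sought over the 10 libraries, as Pearson's r of log2(FPKM + 1) centred within each table, among 12326 genes. These libraries form 4 groups, so r mostly reflects the pair of treatment effects and is a description. IGFBPL1 (0.998), SIK1 (0.997) and WDR1 (0.996) were most like CHGA. RGAG4 (0.998), EHBP1L1 (0.997) and LOC100506990 (0.997) were most like CHGB, and SRD5A1 (0.998), BAALC (0.997) and RRM2B (0.996) most like SCG2. ATP2A1 (0.998), TSPYL1 (0.997) and LPPR2 (0.997) were most like PCSK1N. Within the granin group, PCSK1N resembled CHGB (0.990) and SCG3 (0.991), and SCG2 resembled CPE (0.989). Among all 12326 genes, CHGB and SCG3 ranked only 43 and 38 in likeness to PCSK1N, and CPE ranked 40 for SCG2. CHGA and CHGB gave 0.705. CHGA and VGF ran opposite (-0.938), and CHGA and SCG2 gave -0.065.

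Other genes of the same pathway were described from lists, whose counts are to be read against 36.6% up and 30.3% down of all genes tested with LncND siRNA (median 0.024) and 24.6% up and 38.6% down with the mimic (median -0.062). Of 15 other processing and maturation enzymes, 10 were tested, of which 6 rose and 2 fell with LncND siRNA (median 0.24). With the mimic 5 rose and 3 fell (median 0.30). PAM, which amidates peptide ends, rose in both (0.33, adjusted p = 1.32e-05, and 0.55, adjusted p = 4.21e-06). PTPRN and PTPRN2, granule membrane phosphatase-like proteins, rose with the siRNA by 0.63 and 0.43 on the log2 scale. With the mimic PTPRN2 rose by 0.66 and PTPRN fell by 0.12. The convertase PCSK4 (0.61) also rose with the siRNA, and the 2 genes that fell were the convertase PCSK6 (-0.34) and QPCTL (-0.13), which forms pyroglutamate ends. PCSK6 rose with the mimic (1.09), as did MBTPS1 (1.06), while CPD, a carboxypeptidase related to CPE, fell from 20.2 ± 0.294 to 11.2 ± 0.669 FPKM (-0.80), and QPCTL fell by 0.79.

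Of 24 granule biogenesis and sorting genes, 18 were tested, of which 12 rose and 4 fell with LncND siRNA (median 0.31) and 9 rose and 5 fell with the mimic (median 0.15). Of all genes tested, 36.6% rose and 30.3% fell with the siRNA, and 24.6% and 38.6% with the mimic. CADPS, a priming factor of dense core granules, rose from 0.731 ± 0.0445 to 5.74 ± 0.793 FPKM with the siRNA (1.95 ± 0.082, adjusted p = 4.68e-08). With that control mean, it passed the filter only through the treated libraries. The vesicular monoamine transporter SLC18A2 (1.04) and the membrane-shaping protein ICA1 (0.82) followed, and SORCS1 (-0.66), VPS51 (-0.50) and SORT1 (-0.22) fell. With the mimic the transporter SLC18A1 rose from 64.7 ± 1.65 to 181 ± 3.38 FPKM (1.47 ± 0.042, adjusted p = 1.88e-08). ICA1 (1.11) and CYB561, a granule membrane cytochrome (0.64), also rose, and SORL1 (-0.48), VPS52 (-0.41) and ARF1 (-0.23) fell. The 9 genes that rose with the mimic, SLC18A1, CADPS and ICA1 among them, also rose with LncND siRNA, so 9 of the 18 rose in both. Of all 12327 genes tested in both tables, 12.6% (1552) rose in both comparisons. Those 1552 stand beside 3094 genes that rose with the mimic among the 12558 tested there.

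Among 31 tested docking and exocytosis genes, of 36 listed, 18 rose and 3 fell with LncND siRNA (median 0.26). Of all genes 36.6% rose and 30.3% fell. With the mimic 8 rose and 13 fell (median -0.055), shares and a median close to those of all genes (24.6% up, 38.6% down, median -0.062). SYT5 (2.16), the SNARE gene SNAP25 (1.42) and RAB3A (1.21) had the largest rises with the siRNA. SNAP23 (-0.41) and VAMP3 (-0.099) fell. With the mimic RPH3A (1.31), SYT5 (0.87) and SYT11 (0.58) rose, and CPLX2 (-0.78) and RPH3AL (-0.72) fell. SNAP25 went from 24.3 ± 0.447 to 66.6 ± 2.89 FPKM with the siRNA.

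Peptide precursors other than granins were mostly below the filter, with 15 of 36 tested with LncND siRNA and 14 with the mimic. With the siRNA 8 rose and 4 fell (median 0.14), and with the mimic 6 rose and 4 fell (median 0.080). The shares over all genes were 36.6% and 30.3% with the siRNA, and 24.6% and 38.6% with the mimic. NPB (2.41), CARTPT (1.48) and UCN (1.30) rose with the siRNA, and NMU (-0.50), NMB (-0.42) and ADM (-0.24) fell. CARTPT and UCN had siRNA control means of 0.203 and 0.739 FPKM, so they passed the filter only through the treated libraries. UCN also did so with the mimic, from a control mean of 0.829 FPKM. With the mimic CARTPT (2.06), ADM (1.28) and UCN (0.66) rose, and NMU (-1.38), NPW (-0.69) and CALCB (-0.65) fell. CARTPT, the precursor of the CART peptides, went from 0.203 ± 0.133 to 2.37 ± 0.49 FPKM with the siRNA and from 1.23 ± 0.0905 to 8.35 ± 1.26 FPKM with the mimic.

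Of 19 listed transcription and RNA regulators of granule genes, 18 were tested. With LncND siRNA 4 rose and 10 fell (median -0.22), and with the mimic 5 rose and 10 fell (median -0.20). All genes gave 36.6% up and 30.3% down with the siRNA and 24.6% up and 38.6% down with the mimic, so the share that rose with the mimic was near that background. REST, a repressor whose known targets include granin genes, fell from 7.94 ± 0.246 to 5.01 ± 0.218 FPKM with the siRNA (-0.57 ± 0.046, adjusted p = 2.41e-06). It fell from 5.92 ± 0.499 to 4.06 ± 0.0162 FPKM with the mimic (-0.45 ± 0.073, adjusted p = 0.000468). Its corepressor RCOR1 fell in both as well (-0.59 and -0.55). With the siRNA MYT1 (1.06), PHOX2A (0.49) and MYT1L (0.44) rose. With the mimic MYT1L (1.07), INSM2 (0.85) and MYT1 (0.54) rose, and EGR1 (-1.29), PTBP3 (-1.23) and PHOX2A (-0.71) fell. EGR1, an immediate early factor, went from 10.3 ± 0.302 to 3.64 ± 0.0719 FPKM with the mimic, and with the siRNA it did not pass (-0.068). Whether these levels bear on the granin genes was not tested.

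**Figure D5:**
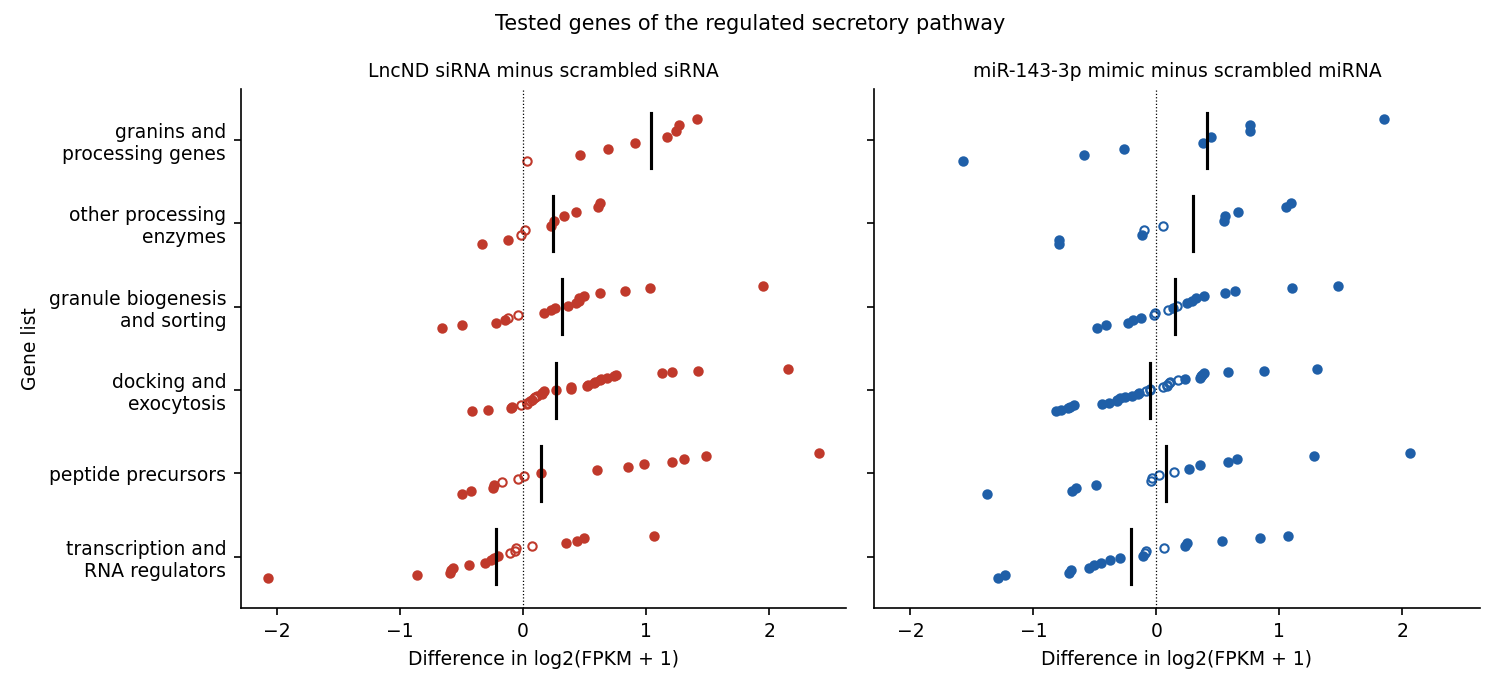
Change in log2(FPKM + 1) of each tested gene of the granin group and of 5 other lists, with LncND siRNA on the left and the mimic on the right, where each point is 1 gene (open where it did not pass) and the bar is the list's median. The granin genes have a median of 1.04 with LncND siRNA and 0.41 with the mimic, and the regulators have medians of -0.22 and -0.20.

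Noradrenergic identity genes gave a mixed picture beside the granins, with 9 up and 5 down of 15 tested with LncND siRNA and 8 up and 5 down with the mimic, where 36.6% and 30.3% of all genes did so with the siRNA and 24.6% and 38.6% with the mimic. DDC, an enzyme of catecholamine synthesis, rose in both (1.03 and 1.34). DBH, whose product is stored in the same granules, rose with the siRNA (0.42) and fell with the mimic (-0.87), the directions of SCG2 and CPE. SLC18A1 and PHOX2A are among the genes that stand both here and in a list above.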

How the data were processed

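The authors deposited FPKM, separately for siRNA and miRNA libraries, and 274 rows hold a status word in every library of a table. Cufflinks, hg19 and TopHat (listed as 1.0.0) appear per the submitters' processing notes. Which annotation and strand setting were used is not given in the sources used here. FPKM is scaled to each library's total, so a very abundant transcript can lower the rest. Genes of at least 300 bp summed to 432314 FPKM in LncND siRNA replicate 1, which had the high RNY4 value. In replicates 2 and 3 they summed to 407897 and 405607 FPKM, so the rest was not lower in replicate 1. Libraries were mapped to groups by their labels, and all value columns had a library. Rows off the chromosomes (1304) were left out. Where a symbol stood on several rows, the row with the highest mean was kept.

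log2(FPKM + 1) was tested with limma 3.58.1 (mean-variance trend, R 4.3.3) within each table, keeping genes at a mean FPKM of 1 or more, with Benjamini-Hochberg adjustment over all genes tested and a threshold of 0.05. The scale understates changes of low genes. Fits were checked on simulated data. No counts were used here, so depth was inferred from steps in low FPKM and from 344 olfactory receptor genes, and fragments from transcript lengths in GENCODE v29. Both are rough and entered no test. The genes and lists were chosen with earlier results of these data known. Named genes were all 10, and in each list the 3 largest rises and falls that passed, plus REST and PAM, and some genes this rule names are not reported here. Alternatives covered pseudocounts, filters, scaling, the replicate block, the variance trend and single libraries left out.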

Additional observations from a re-analysis of the deposited data

Results flagged for a closer look

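SCG2 and CPE changed in opposite directions with the 2 treatments, and the test of the difference itself passed for both. For SCG2 the siRNA effect minus the mimic effect was 1.86 on the log2 scale, from 1.27 with LncND siRNA and -0.59 with the mimic. For CPE it was 1.17, from 0.91 and -0.26. Without any 1 library the differences lay between 1.81 and 1.91 for SCG2 and between 1.14 and 1.20 for CPE.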

How the results depend on the processing

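Of 120 recomputed changes of the 8 genes with LncND siRNA and 104 with the mimic, all kept their direction and their side of the threshold. Of 128 recomputed differences of effects 127 did, and the exception was SCG3 under quantile normalization (0.13). Without any 1 library the counts stayed at 7 up and 0 down, 5 up and 3 down, and 8 that differed, where leaving out a miRNA library assumes that the lone library left varies like the others. With no filter PCSK1 and PCSK2 also entered, giving 8 up with the siRNA, and 6 up and 4 down with the mimic. Over all 23416 genes then tested with the siRNA, 5001 rose and 3544 fell. Over all 23426 with the mimic, 2000 in place of 3094 rose and 3327 fell. All 10 genes then differed between the treatments, a count for which no share over all genes is given here. Under a pseudocount of 0.1 the log2 ratio of PCSK1N over PCSK1 moved to 1.53 (siRNA) and 1.70 (mimic). That of SCG5 over PCSK2 turned to -0.26 (siRNA) and moved to -1.37 (mimic), a move made by the added constant alone. Same-numbered libraries deviated together weakly (0.068, 0.207 and -0.053 for the siRNA, 0.135 for the mimic). Other-numbered siRNA libraries gave -0.159 to 0.078. With 2 libraries per group the deviations mirror each other, so the mimic gives only 1 value. These values are too few to decide whether the numbers pair the libraries. With the replicate block the counts for the 8 genes stayed at 7, 0, 5, 3 and 8, and all genes called were 4406 up and 3616 down with the siRNA and 3243 and 5004 with the mimic. Depth limits PCSK1, with 1.8 to 26.2 estimated fragments per library.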
